A study of Homo sapiens with 6 samples.

Results

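Centrosomal protein genes were followed in the human glioblastoma line U-87 MG after exposure to targeted electromagnetic fields. Members were all genes whose array symbol starts with CEP and a digit, with TUBG or with HAUS, plus PCNT, CDK5RAP2, STIL, SASS6, ODF2, NIN, CNTROB and CCP110. The rule found 45 of the 14884 named genes: 42 coding genes, the noncoding CEP83-DT and the pseudogenes CEP170P1 and CEP192P1. Symbols starting with TUBG or HAUS were not among the named genes, nor was CNTROB, so the gamma-tubulin complex and augmin were not analysed here. Where a gene had several probe sets, the one with the highest mean was used.

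The 3 exposed arrays came from cells kept for 54 h in the fields, starting 24 h after seeding, in a culture box inside a Faraday chamber. The 3 unexposed arrays came from cells of the same line in a box outside the chamber, without fields. The fields were aimed at miR-381, a mutated alpha-kinase 2 gene, HSP70 and CHI3L1, none of which is a centrosomal protein gene. Both groups grew in the same medium with serum and are 1 cell line, and the titles call each array a biological replicate. Because chamber and field went together, the differences below cannot be told apart from those between the boxes.

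The centrosome is a pair of centrioles, short cylinders of microtubules, within a cloud of pericentriolar material that nucleates microtubules. Centrioles are copied once per cell cycle around a cartwheel built by SASS6 and STIL, and the pericentriolar material grows before mitosis to form the spindle poles. In cells that leave the cycle, the older centriole, through its appendages, becomes the base of a primary cilium. Several of these genes are transcribed most in the S and G2 phases of dividing cells, and extra or defective centrosomes are common in glioblastoma.

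All values are log2 expression values from robust multi-array averaging (RMA), so 1 unit is a 2-fold difference, and changes are exposed minus unexposed with the standard error (SE) from limma. Array medians lay between 3.96 and 3.99. Of the 45 genes, 3 (CEP192P1, CEP85L and CEP83-DT) lay below the array median on all 6 arrays, as did 24.0% of all genes, and their values are dim. The median spread between replicates was 0.11 for these genes and 0.13 for all genes (pooled SD within groups). The labelled glioma line was checked by its markers: in exposed and unexposed cells FN1 averaged 11.9 and 12.1, VIM 10.5 and 10.5, CD44 8.87 and 8.99, CHI3L1 8.88 and 8.74, and NES 6.79 and 6.87. Of the glial markers, GFAP averaged 5.21 in exposed and 4.86 in unexposed cells and OLIG2 4.42 and 4.71, while S100B (3.26 and 3.68) and SOX2 (3.62 and 3.57) lay below the array medians. None of these 9 passed in limma. Of 12 markers of immune, endothelial, epithelial and neuronal cells 6 were measured, 4 of them below the array median throughout, and 0 passed in limma. The summed values of these 6 were 22.7 to 23.3 on exposed and 21.4 to 22.7 on unexposed arrays. The neuronal SYT1 averaged 5.37 in exposed and 5.34 in unexposed cells and the epithelial EPCAM 4.42 and 4.37, near GFAP and OLIG2. These levels therefore do not single out glial cells. For the dim immune marker CD14 (3.33 and 2.97) all exposed values lay above all unexposed values, as for 13.2% of all genes.

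Exposed cells had lower values for most centrosomal protein genes, but few of these differences passed the test. With limma and Benjamini-Hochberg adjustment over all genes, 1 gene fell, CEP192 (change -0.45), and 2 rose, CEP41 (0.51) and CEP19 (0.53). That is 1 of 45 against a background of 1.67% of all genes lower, and 2 of 45 against 1.40% higher, and together 3 of 45 (6.67%) against 3.06%. Counts this small do not set the members apart from all genes. The 3 exposed values lay entirely below the 3 unexposed values for 18 of the 45 genes (40.0%), against 13.8% of all genes. They lay entirely above for 4 of the 45 (8.89%), against 13.2% of all genes. Negative changes were seen in 32 genes (71.1%, against 49.3% of all genes) and positive ones in 13, with a median of -0.11 beside 0.00288 over all genes. At an unadjusted p under 0.05, limma had 12 genes lower (26.7%, against 10.2% of all genes) and 4 higher (8.89%, against 8.71%). These shares over all genes include many dim genes, which are fewer among the members. Over probe sets above the median level, limma had 12 of 42 members lower at that cut, against 13.5% of all genes. It had 3 higher, against 10.9%.

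**Figure D1:**
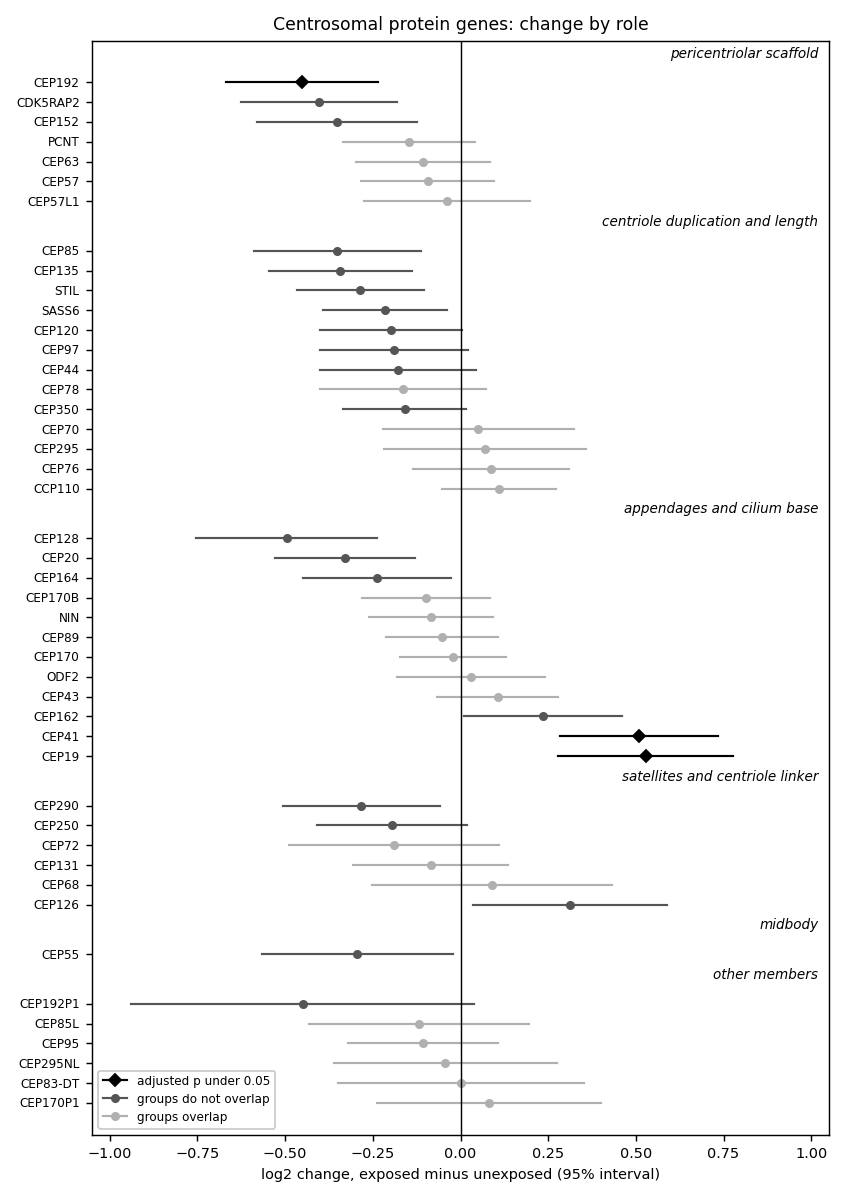
Log2 change (exposed minus unexposed, horizontal axis) with its 95% interval for each of the 45 genes, grouped by role; black diamonds passed the limma threshold, dark grey points have groups that do not overlap and light grey points have groups that overlap. CEP192 stands at -0.45, CEP41 at 0.51 and CEP19 at 0.53, and all 7 scaffold genes lie left of 0.

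These counts and signs depend on how arrays are scaled. With each array centred on its ribosomal protein genes, the median over all genes moved to 0.15 and that over the 45 genes to 0.04, since this adds the same amount to every gene's change. Negative changes were then seen in 21 of the 45 genes, against 21.9% of all genes, and 3 of the 7 scaffold genes (CEP63, CEP57 and CEP57L1) became positive. At an unadjusted p under 0.05, limma then had 3 of the 45 lower, against 2.86% of all genes, and 6 higher, against 17.8%. Relative to all genes the members' median lay between -0.16 and -0.08 in every alternative tried. The signs given below hold for the arrays as deposited, relative to a median change near 0 over all genes.

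Mitosis genes, a mark of how many cells are dividing, were lower in exposed cells as well. Of 23 listed 19 were measured, 12 fell and 0 rose, all 19 had negative values, and the median was -0.51. Over all genes 1.67% fell, 1.40% rose and 49.3% had negative values. MKI67, the marker of cycling cells, fell by 0.60 and PRC1, which bundles spindle microtubules, by 0.57 (limma adjusted p = 0.0298 for both). The list's mean level was 8.78, 8.53 and 8.82 on the exposed arrays and 9.09, 9.30 and 9.17 on the unexposed arrays, with exposed replicate 2 lowest and unexposed replicate 2 highest. In bulk samples fewer dividing cells and less RNA per cell cannot be told apart, and the part of these genes in the centrosomal values was not tested.

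Over all genes limma called 456 with all arrays, 325 without exposed replicate 3, 67 without unexposed replicate 1 and 0 without any other array, so every call named here was lost in those 4 settings. In these 4, 8 to 12 of the 45 genes were lower and 2 or 3 higher at an unadjusted p under 0.05 in limma, against 7.33% to 8.28% of all genes lower and 6.54% to 7.32% higher.

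The pericentriolar scaffold had 7 measured genes, all with negative values (against 49.3% of all genes), a median of -0.15, and 1 that fell (against 1.67%). The group holds members only and was chosen with earlier results of these data known. It also counts CEP152, CEP63 and CEP57, whose ring receives PLK4, the kinase that starts centriole duplication. AKAP9, a scaffold of the centrosome and Golgi outside the member rule, had a positive change of 0.33 (limma adjusted p = 0.0749). CEP192, which gathers the kinases and gamma-tubulin needed for centrosome maturation, was at 6.80, 6.63 and 6.77 on the exposed arrays and at 7.07, 7.34 and 7.17 on the unexposed arrays. The groups do not overlap, with exposed replicate 2 lowest and unexposed replicate 2 highest. The means were 6.74 ± 0.09 in exposed cells, against 7.19 ± 0.14 in unexposed cells (SD, n = 3 per group), a change of -0.45 (SE 0.09) or 0.730-fold (limma adjusted p = 0.0471). This call did not hold with any 1 array left out (limma adjusted p = 0.0628 to 0.160), while the change stayed between -0.52 and -0.38.

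CDK5RAP2, which binds the gamma-tubulin complex and activates it, had 7.42, 7.35 and 7.59 on the exposed arrays and 7.75, 8.01 and 7.81 on the unexposed arrays. All exposed values lie below all unexposed values. Its change was -0.40 (SE 0.10, 95% interval from -0.63 to -0.18), short of the threshold (limma adjusted p = 0.0676). CEP152, which with CEP63 and CEP57 forms the ring around the mother centriole that receives the kinase PLK4, had 7.22, 7.08 and 7.19 on the exposed arrays and 7.36, 7.49 and 7.70 on the unexposed arrays. These groups do not overlap either, and the change was -0.35 (SE 0.10, limma adjusted p = 0.0997). CEP152 was named after its values were seen, like CEP85, CEP120, CEP350, CEP97, CEP44, CEP164, CEP162 and CEP72 below.

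PCNT encodes pericentrin, the large scaffold of the pericentriolar material, and had 7.08, 7.08 and 7.24 on the exposed arrays and 7.20, 7.37 and 7.29 on the unexposed arrays. The highest exposed value, from replicate 3, exceeds the lowest unexposed value, and the change of -0.15 had a 95% interval from -0.34 to 0.04 (limma adjusted p = 0.386). The CEP152 partners CEP63 and CEP57 and the related CEP57L1 had overlapping groups and changes of -0.11, -0.09 and -0.04. CEP57L1 was at 0.02 without unexposed replicate 3. The mean level of the 7 scaffold genes was 6.73, 6.68 and 6.78 on the exposed arrays and 6.85, 7.03 and 6.99 on the unexposed arrays, so the groups of arrays are separate for this mean.

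The promoter windows of the scaffold genes whose groups do not overlap are printed to show where motifs of cell cycle genes stand in them. Windows run from 250 bases before to 50 bases after the gene start, from RefSeq on GRCh38.p14, in the direction of transcription. Capitals mark matches on either strand to TTTGAA (the cell cycle gene homology region, CHR), CCAAT, and the E2F motifs TTTCCCGC and TTTGGCGC.
CEP192 promoter, chr18:12991112-12991411, plus strand: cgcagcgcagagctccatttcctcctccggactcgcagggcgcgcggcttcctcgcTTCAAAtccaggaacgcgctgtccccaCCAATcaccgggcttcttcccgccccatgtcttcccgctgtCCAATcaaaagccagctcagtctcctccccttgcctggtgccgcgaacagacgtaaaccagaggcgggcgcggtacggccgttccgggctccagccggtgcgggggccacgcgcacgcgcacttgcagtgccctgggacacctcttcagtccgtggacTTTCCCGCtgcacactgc
CDK5RAP2 promoter, chr9:120580118-120580417, minus strand: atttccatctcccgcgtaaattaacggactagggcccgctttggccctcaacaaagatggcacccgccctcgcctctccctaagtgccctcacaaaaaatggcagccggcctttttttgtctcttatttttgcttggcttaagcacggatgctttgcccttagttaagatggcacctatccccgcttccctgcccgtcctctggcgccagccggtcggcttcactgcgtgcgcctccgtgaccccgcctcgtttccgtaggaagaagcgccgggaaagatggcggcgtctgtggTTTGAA
CEP152 promoter, chr15:48811020-48811319, minus strand: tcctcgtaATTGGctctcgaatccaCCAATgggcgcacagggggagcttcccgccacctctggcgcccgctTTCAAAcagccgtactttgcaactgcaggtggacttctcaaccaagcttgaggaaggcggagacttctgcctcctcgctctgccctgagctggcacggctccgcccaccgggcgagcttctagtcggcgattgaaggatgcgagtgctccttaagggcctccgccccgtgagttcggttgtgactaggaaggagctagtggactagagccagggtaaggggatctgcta
CEP192 held 1 TTTGAA, 2 CCAAT and 1 TTTCCCGC, CDK5RAP2 held 1 TTTGAA at the end of the window, and CEP152 held 1 TTTGAA and 2 CCAAT. A match is a description of the letters and not of a bound site.

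Windows were given for 39 of the 45 genes, 38 of them coding, and the first window listed was used where a gene had several. TTTGAA stood in 13 of the 38 windows (34.2%), against 1923 of 15843 windows of coding genes (12.1%). CCAAT stood in 19 of 38 (50.0%) against 36.4%, TTTCCCGC in 2 (5.3%) against 2.2%, and TTTGGCGC in 1 (2.6%) against 0.9%. Among the 16 windows of genes whose exposed values all lay below the unexposed ones, 7 held TTTGAA (43.8%), and among the other 22 windows 6 did (27.3%). For CCAAT these were 8 of 16 and 11 of 22 (50.0% in both), and each E2F motif stood in 1 of the 16, with TTTCCCGC in 1 and TTTGGCGC in 0 of the 22. The letters of no motif contain those of another. The 13 genes with TTTGAA include the midbody gene CEP55 with 2 matches, and also CEP89, CEP76, CEP57, CEP295, CEP72 and CEP85L, whose groups overlap. Among genes with all exposed values lower, CEP128, CEP350 and CEP120 held no match in the windows used. Another CEP120 window, left out of these counts, held 1 TTTGAA. STIL, CEP20, CEP85, CEP164 and CEP97 held CCAAT alone, and SASS6 held TTTGGCGC alone.

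Of 13 genes of centriole duplication and length, 0 passed in limma after adjustment. Negative values were seen in 9, against 49.3% of all genes (median -0.18). At an unadjusted p under 0.05 in limma 4 were lower, against 10.2% of all genes, and 0 higher, against 8.71%. In 8 of the 13 the exposed values lay entirely below the unexposed values, against 13.8% of all genes. STIL, which recruits SASS6 to start a new centriole, had 8.67, 8.46 and 8.59 on the exposed arrays and 8.79, 8.97 and 8.82 on the unexposed arrays. Its groups do not overlap, and the change was -0.29 (SE 0.08, limma adjusted p = 0.0943). SASS6, the protein of the cartwheel, had 8.04, 7.89 and 8.10 on the exposed arrays and 8.15, 8.28 and 8.26 on the unexposed arrays, again without overlap but with only 0.05 between the nearest values. Its change was -0.22 (SE 0.08, limma adjusted p = 0.173).

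CEP135, which ties the cartwheel to the centriole wall, had 6.51, 6.51 and 6.55 on the exposed arrays and 6.71, 6.94 and 6.95 on the unexposed arrays. The exposed values lay close together and below all unexposed values, with a change of -0.34 (SE 0.09, limma adjusted p = 0.0794). CEP85, a binding partner of STIL, had 6.40, 6.35 and 6.35 on the exposed arrays and 6.61, 6.93 and 6.61 on the unexposed arrays, with unexposed replicate 2 well above the other two. Its change of -0.35 (SE 0.10, limma adjusted p = 0.114) was the most negative of the duplication genes and became -0.25 without unexposed replicate 2.

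The other duplication genes without overlap had smaller changes. They were CEP120, needed for centriole elongation (-0.20), CEP97, part of the cap on the growing centriole end (-0.19), CEP44, needed for new centrioles to become centrosomes (-0.18), and CEP350 (-0.16). The nearest values of the groups were only 0.009 apart for CEP120, 0.014 for CEP97, 0.039 for CEP44 and 0.008 for CEP350. Each of their 95% intervals includes 0. The CEP97 change was -0.10 without exposed replicate 3, and that of CEP44 was -0.10 without exposed replicate 2. CCP110, the partner of CEP97 in the cap, had 8.29, 8.29 and 8.21 on the exposed arrays and 8.05, 8.20 and 8.21 on the unexposed arrays. These groups overlap, and the change of 0.11 had a 95% interval from -0.05 to 0.27. CEP76, which limits renewed duplication, was at 6.23 ± 0.13 in exposed cells, against 6.14 ± 0.07 in unexposed cells (SD, n = 3 per group), a change of 0.09 (95% interval from -0.14 to 0.31). CEP78, CEP295 and CEP70 overlapped as well, with changes between -0.16 and 0.07.

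**Figure D2:**
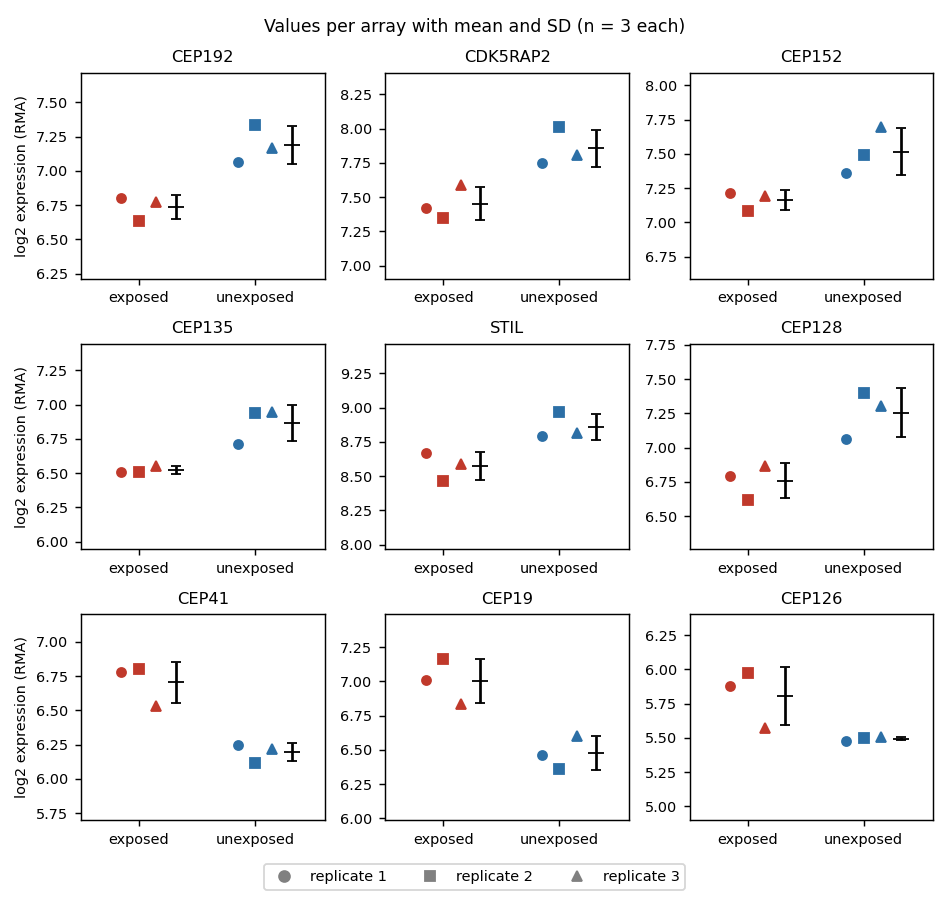
Log2 expression (vertical axis, 1.5 units in each panel) on each array for 9 genes, exposed left of unexposed, with marker shape giving the replicate and the black bar the mean ± SD (n = 3 each). The first 6 panels have all exposed points below all unexposed points, and CEP41, CEP19 and CEP126 have them above.

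Genes of the centriole appendages and the cilium base had values of both signs: of 12, 2 rose, 0 fell, 7 had negative and 5 positive values, and the median was -0.04. The shares over all genes were 1.40% that rose, 1.67% that fell and 49.3% with negative values. CEP41, which brings the enzyme of tubulin glutamylation into the cilium, had 6.78, 6.80 and 6.53 on the exposed arrays and 6.25, 6.12 and 6.22 on the unexposed arrays. The lowest exposed value, from replicate 3, is still above the highest unexposed value. The means were 6.70 ± 0.15 in exposed cells, against 6.20 ± 0.07 in unexposed cells (SD, n = 3 per group), a change of 0.51 (SE 0.10) or 1.42-fold (limma adjusted p = 0.0403). CEP19, a ciliogenesis protein of the mother centriole, had 7.01, 7.16 and 6.84 on the exposed arrays and 6.46, 6.36 and 6.60 on the unexposed arrays, also without overlap. The means were 7.00 ± 0.16 in exposed cells, against 6.47 ± 0.12 in unexposed cells (SD, n = 3 per group), a change of 0.53 (SE 0.11) or 1.44-fold (limma adjusted p = 0.0456). Both calls held without exposed replicate 3 and were lost without any other array, at limma adjusted p of 0.0710 to 0.153 for CEP41 and 0.0939 to 0.154 for CEP19.

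The promoter windows of CEP41 and CEP19, the 2 members that rose, are printed with the same marking. They were picked by their changes, as the scaffold windows were, and a tie between motifs and changes was not tested.
CEP41 promoter, chr7:130440967-130441266, minus strand: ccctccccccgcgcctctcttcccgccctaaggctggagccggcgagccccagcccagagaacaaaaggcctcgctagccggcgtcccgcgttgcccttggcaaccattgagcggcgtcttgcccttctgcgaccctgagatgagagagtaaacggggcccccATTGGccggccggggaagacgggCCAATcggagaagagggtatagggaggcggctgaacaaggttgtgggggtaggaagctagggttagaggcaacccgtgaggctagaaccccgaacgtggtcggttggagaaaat
CEP19 promoter, chr3:196712201-196712500, minus strand: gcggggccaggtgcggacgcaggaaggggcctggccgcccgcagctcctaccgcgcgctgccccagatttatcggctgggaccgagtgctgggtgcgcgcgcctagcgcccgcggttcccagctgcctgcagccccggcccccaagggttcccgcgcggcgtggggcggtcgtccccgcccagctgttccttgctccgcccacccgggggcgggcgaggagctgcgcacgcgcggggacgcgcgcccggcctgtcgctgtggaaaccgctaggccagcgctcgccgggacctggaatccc
CEP41 held 2 CCAAT matches and no TTTGAA, and CEP19 held 0 matches to any of the 4 motifs.

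Other appendage genes without overlap did not pass, with lower exposed values for CEP128, CEP20 and CEP164 and higher ones for CEP162. CEP128, a subdistal appendage protein, had 6.79, 6.62 and 6.87 on the exposed arrays and 7.06, 7.40 and 7.31 on the unexposed arrays. Its change of -0.50 (SE 0.11, limma adjusted p = 0.0572) was the most negative among all 45 genes, and the groups do not overlap. CEP20, which takes part in cilium formation, had 9.18, 8.95 and 9.21 on the exposed arrays and 9.38, 9.56 and 9.40 on the unexposed arrays, a change of -0.33 (SE 0.09, limma adjusted p = 0.0835). CEP164, the distal appendage protein that docks membrane vesicles for the cilium, had a change of -0.24, and CEP162, which sits at the axoneme base, one of 0.23, both without overlap (limma adjusted p = 0.206 and 0.246).

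ODF2 and NIN, long-known appendage components, had groups that overlap. ODF2, on which the appendages are built, had 7.14, 6.89 and 7.09 on the exposed arrays and 6.95, 7.10 and 6.98 on the unexposed arrays, a change of 0.03 (95% interval from -0.18 to 0.24). NIN, which encodes the microtubule-anchoring protein ninein, had 7.47, 7.42 and 7.31 on the exposed arrays and 7.40, 7.55 and 7.52 on the unexposed arrays, a change of -0.08 (95% interval from -0.26 to 0.09). CEP170, CEP170B, CEP89 and CEP43 also overlapped, with changes from -0.10 to 0.11.

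Of 6 genes of the centriolar satellites and of the linker between centrioles, 0 passed in limma after adjustment. At an unadjusted p under 0.05 in limma 1 was lower, against 10.2% of all genes, and 1 higher, against 8.71%. CEP290, a protein of satellites and of the gate at the cilium base, had 5.72, 5.53 and 5.73 on the exposed arrays and 5.86, 6.03 and 5.94 on the unexposed arrays. The groups do not overlap, and the change was -0.28 (SE 0.10, limma adjusted p = 0.164). CEP126, which takes part in microtubule organisation at the centrosome and in cilium formation, had 5.88, 5.97 and 5.57 on the exposed arrays and 5.48, 5.50 and 5.51 on the unexposed arrays. All exposed values were higher, with exposed replicate 3 close to the unexposed arrays, and the change was 0.31 (SE 0.12, limma adjusted p = 0.206).

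CEP250, the base of the linker fibres, had a change of -0.20 without overlap, which was -0.11 without unexposed replicate 2. CEP68, another linker protein, was at 4.99 ± 0.15 in exposed cells, against 4.90 ± 0.23 in unexposed cells (SD, n = 3 per group) with overlapping groups, and the satellite proteins CEP72 and CEP131 had changes of -0.19 and -0.09. The CEP72 change was -0.06 without exposed replicate 3.

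CEP55, a midbody protein that brings in the machinery of the final cut between daughter cells, had 9.30, 8.97 and 9.36 on the exposed arrays and 9.41, 9.67 and 9.43 on the unexposed arrays. Exposed replicate 2 lies apart from the other two exposed arrays, and the highest exposed value is 0.05 below the lowest unexposed one. The change was -0.29 (SE 0.12), short of the threshold (limma adjusted p = 0.229). Without unexposed replicate 2 it was -0.21, and without exposed replicate 2 it was -0.17.

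The remaining members are less characterised genes, pseudogenes and a noncoding transcript. CEP95 was at 7.22 ± 0.08 in exposed cells, against 7.32 ± 0.14 in unexposed cells (SD, n = 3 per group), a change of -0.11 with overlap. CEP170P1, a pseudogene of CEP170, was at 6.44 ± 0.21 in exposed cells, against 6.36 ± 0.19 in unexposed cells, and the dim CEP83-DT, a noncoding RNA divergent from CEP83, was at 3.30 ± 0.10 in exposed cells, against 3.30 ± 0.18 in unexposed cells. CEP192P1, a pseudogene of CEP192, was dim at 2.66, 2.84 and 2.82 on the exposed arrays and 3.68, 2.97 and 3.02 on the unexposed arrays. Its groups do not overlap, unexposed replicate 1 stands far above the rest, and without that array the change of -0.45 became -0.22. Its other 2 probe sets had changes of 0.09 and -0.12. The pseudogenes resemble their parent genes, so signal between each pair is uncertain. CEP85L and CEP295NL had changes of -0.12 and -0.04.

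Across arrays the lowest and highest values of these genes did not fall evenly, and the shares over all genes were not counted. Exposed replicate 2 held the lowest of the 6 values for 16 of the 45 genes, and for 13 of the 18 whose exposed values were all lower. Unexposed replicate 2 held the highest value for 23 of the 45, and for 14 of those 18. Because the 18 were chosen by separation, their lowest value could only be on an exposed array and their highest on an unexposed array. Exposed replicate 2 and unexposed replicate 2 were also the extremes of the mitosis list. The mean level over the 45 genes was 6.60, 6.54 and 6.56 on the exposed arrays and 6.60, 6.74 and 6.66 on the unexposed arrays. Over the 42 coding genes it was 6.77, 6.70 and 6.74 on the exposed arrays and 6.76, 6.91 and 6.83 on the unexposed arrays. The groups of arrays overlap for the coding genes, and over all 45 exposed replicate 1 and unexposed replicate 1 differed by less than 0.01.

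**Figure D3:**
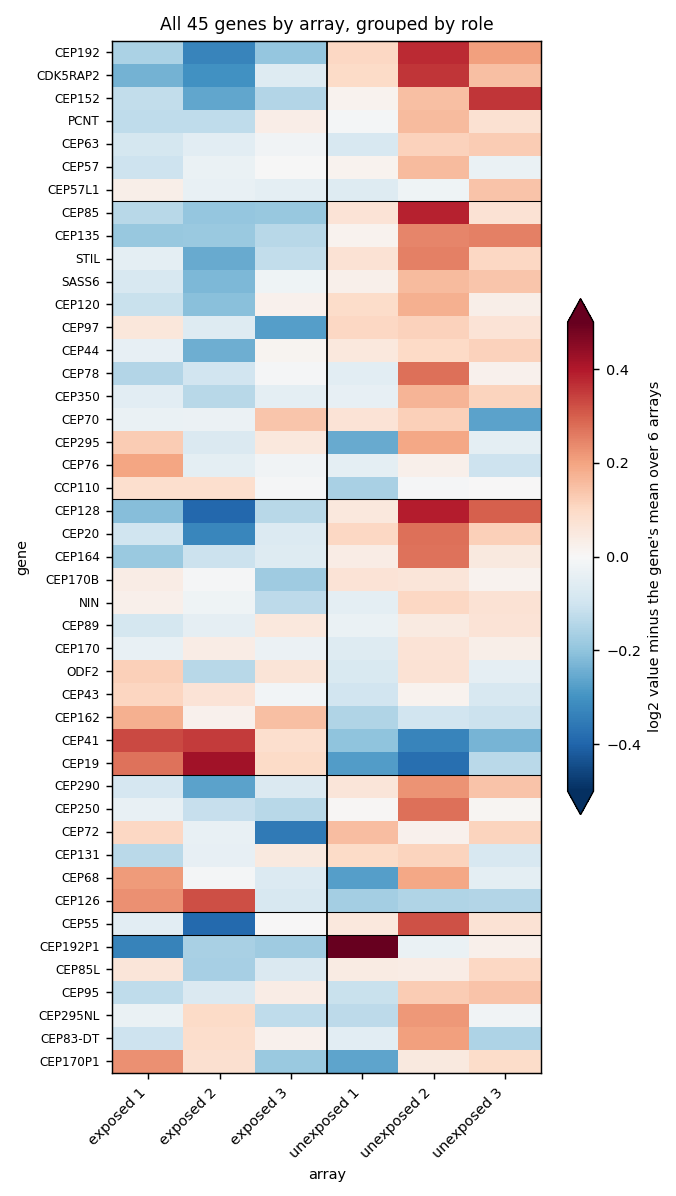
Heat map of each gene's log2 value minus its own mean over the 6 arrays (colour scale from -0.5 to 0.5), with genes in rows grouped by role and arrays in columns, exposed left of unexposed. Exposed replicate 2 holds the lowest value of 16 genes and unexposed replicate 2 the highest of 23. For CEP41, CEP19, CEP126 and CEP162 all exposed values are above all unexposed values.

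A further list held 62 other genes of the centrosome, of which 44 were measured. Of these 2 fell (against 1.67% of all genes), 0 rose (against 1.40%), 33 had negative values (against 49.3%), and the median was -0.14. In 14 the exposed values lay entirely below the unexposed values (against 13.8% of all genes), and in 5 entirely above (against 13.2%). CNTRL, which encodes centriolin of the subdistal appendages, had 5.86, 5.70 and 5.80 on the exposed arrays and 6.30, 6.51 and 6.44 on the unexposed arrays, a change of -0.63 (SE 0.09, limma adjusted p = 0.0298). WDR62, a spindle pole protein mutated in microcephaly, fell by 0.43 (SE 0.07, limma adjusted p = 0.0312), with 7.63, 7.51 and 7.69 on the exposed arrays and 8.06, 8.04 and 8.02 on the unexposed arrays. The groups overlap for neither gene. With single arrays left out the change of CNTRL ran from -0.69 to -0.58 and that of WDR62 from -0.47 to -0.38, at limma adjusted p of up to 0.120 for each. LRRCC1 and AKAP9, a distal centriole protein and a scaffold of the centrosome and Golgi, had positive changes of 0.53 and 0.33 that did not pass (limma adjusted p = 0.0550 and 0.0749). PLK4, the kinase that starts centriole duplication, had a change of -0.52 that did not pass either (limma adjusted p = 0.0564), and it was named after its values were seen.

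Of 30 genes of transport within the cilium 24 were measured, 1 rose (against 1.40% of all genes), 0 fell (against 1.67%), and the median was -0.08. Negative values were seen in 16 (against 49.3% of all genes). The exposed values lay entirely below the unexposed values for 7 (against 13.8%) and entirely above for 2 (against 13.2%). KIFAP3, the adaptor of the kinesin-2 motor, had a change of 0.46 (SE 0.08, limma adjusted p = 0.0328). TTC21B (0.37), WDR35 (-0.45), both of the intraflagellar transport complex A, and KIF3B (-0.16), a kinesin-2 motor subunit, did not pass. The KIFAP3 change ran from 0.40 to 0.51 with single arrays left out, at limma adjusted p of up to 0.121. Of 17 tubulin genes listed, 0 were among the named genes, and they were not analysed here.

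**Figure D4:**
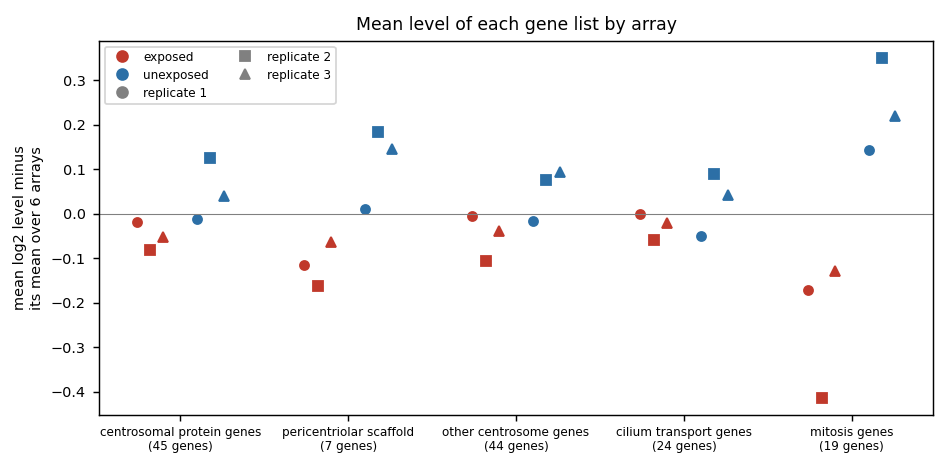
Mean log2 level of 5 gene lists on each array, minus that list's mean over all 6 arrays (vertical axis), with exposed points left of unexposed points and marker shape giving the replicate. The mitosis genes span the widest range of the 5 lists, the scaffold genes separate the groups, and for other centrosome genes and cilium transport genes the groups overlap.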

How the data were processed

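Total RNA of 3 exposed and 3 unexposed dishes was labelled with biotin and hybridised to 1-colour Affymetrix arrays, per the labels' protocols. The deposited table holds log2 values per probe set, made by the authors with RMA in Affymetrix Expression Console 3.0 and Transcriptome Analysis Console 3.0, per the submitters' processing notes. Its other settings were not given in the sources used here. No detection calls stand in the table, and 3 arrays per group limit the precision. Groups come from the titles; the description of the exposed samples also contains the word control.

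Of 53617 probe sets, 16098 carried 1 gene symbol and 37519 were unnamed here. Differences were fitted on all probe sets by limma (version 3.58.1, under R 4.3.3), using lmFit and a trended eBayes with two-sided tests, with Benjamini-Hochberg adjustment over the 14884 genes at a threshold of 0.05. Intervals are 95% intervals. The fitting code was run on simulated data with planted changes and independent noise per probe set. Such data hold no shifts shared by many genes of an array, so they do not test how firm the calls are. Values named follow a rule: members that passed, the 2 smallest p-values in each direction per role group or list, and the 7 measured genes of the rule's named set, with additions marked as such. Changes of CEP63, CEP57, CEP57L1, CEP131, CEP85L and CEP295NL are given outside this rule, as are the sign changes in the closing section. Members, role groups and lists were chosen with earlier results of these data known. The main fit did not pair samples by replicate number, and same-numbered arrays gave no sign of pairing (sensitivity values below). Symbols were checked in the RefSeq gene table of GRCh38.p14. Alternatives are given in the closing section. Figures were drawn with matplotlib 3.10.9.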

Additional observations from a re-analysis of the deposited data

How the results depend on the processing

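The count of 1 gene lower and 2 higher was not stable. With each array left out in turn 0 were lower each time and 0 to 2 higher, and the members' median change ran from -0.16 to -0.08. The counts were 0 lower and 0 higher with the replicate block, without a mean-variance trend and with adjustment over all probe sets. With the block 11 members were lower (against 8.17% of all genes) and 3 higher (against 7.19%) at an unadjusted p under 0.05, and without the trend 9 (against 7.67%) and 4 (against 7.24%). Same-numbered arrays had correlations of their deviations from the group means of -0.02, -0.03 and 0.01, so the numbers give no sign of pairing. With arrays centred on ribosomal protein genes 0 were lower and 1 higher (CEP19), and the median changed sign to 0.0368, because this scaling raises the change of every gene by the same amount. It also changed the sign of 11 members, to 0.0251 for CEP85L, 0.0368 for CEP95, 0.0373 for CEP63, 0.0454 for CEP170B, 0.0503 for CEP57, 0.0583 for CEP131, 0.0592 for NIN, 0.0910 for CEP89, 0.100 for CEP295NL, 0.106 for CEP57L1 and 0.123 for CEP170. The lower count was 3 (CDK5RAP2, CEP128 and CEP192) over probe sets above the median level, where fewer genes were tested and 4.03% of all were lower, and 7 with the fit on representative probe sets alone, where 4.62% were lower, which added CEP135, CEP152, CEP20 and STIL; CEP41 and CEP19 remained the 2 higher genes in both. The counts stayed at 1 and 2 when probe sets of a gene were averaged and with quantile normalization again.

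Over 14 alternatives CEP192 passed in 4, CEP41 in 5 and CEP19 in 6. CNTRL, WDR62 and PRC1 also lost their calls with ribosomal centring (limma adjusted p = 0.0579, 0.156 and 0.0649), and KIFAP3 with averaged probe sets (limma adjusted p = 0.127). Other sign changes concerned values near 0, and their cause was not tested. With single arrays left out, 9 members changed sign, all with overlapping groups: ODF2 ran from -0.0226 to 0.106 (negative without exposed or unexposed replicate 1), CEP170P1 from -0.0299 to 0.195 (negative without the same arrays), CEP68 from -0.0264 to 0.208 and CEP295 from -0.0367 to 0.185 (negative without unexposed replicate 1), CEP70 from -0.0694 to 0.123 (negative without exposed or unexposed replicate 3), CEP57L1 from -0.0805 to 0.0241 (positive without unexposed replicate 3), CEP170 from -0.0573 to 0.00785 (positive without unexposed replicate 2), CEP295NL from -0.121 to 0.0536 (positive without exposed replicate 3 or unexposed replicate 2) and CEP83-DT from -0.0754 to 0.103 (negative without exposed replicate 2 or 3 or unexposed replicate 1 or 3). With quantile normalization again CEP83-DT was at -0.00555 and CEP170 at 0.0106. Leaving out 1 array moved the change by over 1.5 times for 21 of the 23 members with overlapping groups, CCP110 (0.06 at the lowest) and CEP76 (0.01) among them, and for 5 of the other 22: CEP192P1, CEP250, CEP44, CEP55 and CEP97.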
